A study of Canis lupus familiaris with 13 samples.

Results

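Genes of 7 families of amino acid transporters were followed in skeletal muscle of dogs: SLC1A, SLC3A, SLC6A, SLC7A, SLC36A, SLC38A and SLC43A. A gene was a member if it was annotated as protein-coding and its symbol was a family name followed by a number. This gave 54 members among 30951 genes, of which 20199 were protein-coding. For a symbol on more than 1 gene entry, the entry with the most raw counts was kept. Otherwise the rule used no expression value. RNA was sequenced from 13 small biopsies of the biceps femoris, a thigh muscle, of 4 wild-type dogs aged 9 to 10 months. The basal group (sample 0) held 1 library each of dogs 2, 3 and 4 (n = 3). The insulin-stimulated libraries were sample 1 of dogs 1 to 4 (n = 4), sample 2 of dogs 1 to 4 (n = 4) and sample 3 of dogs 1 and 2 (n = 2). Dog 1 had no basal library. The labels give neither the insulin dose nor the meaning of the sample numbers, and a biopsy holds every cell type of the muscle.

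Amino acid transporters carry amino acids across the cell surface and the membrane of the lysosome. The SLC38A family couples small neutral amino acids such as alanine and glutamine to sodium, and carriers of the SLC7A family exchange large neutral or cationic amino acids, several of them only when paired with a heavy chain of the SLC3A family. In muscle this traffic supplies leucine and arginine to mTORC1, the kinase complex that drives protein synthesis, and insulin is known to increase the uptake of small neutral amino acids through system A, partly by moving the transporter SLC38A2 to the surface. Some members carry other cargo: SLC6A6 moves taurine, SLC6A8 moves creatine, and SLC6A2 and SLC6A4 move noradrenaline and serotonin.

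Libraries held from 45200416 to 81948641 counts. Levels are given in CPM, counts scaled to the adjusted library total. The 8 markers of skeletal muscle were all detected and summed to at least 239772 CPM in every library, while 5 endothelial markers summed to between 60.0 and 298 CPM. The 5 fibroblast and matrix markers ranged more widely, from 214 to 2793 CPM in basal and from 299.8 to 1138 CPM with insulin. Dog 1 sample 2 stood apart: ACTA1, the muscle actin, took 18.4% of its counts, against 10.4% to 13.7% elsewhere.

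Of the 54 members, 33 passed the filter on low counts and were tested, and 21 did not. SLC7A9 and SLC7A10 had 0 counts in all 13 libraries, which allows up to 0.0401 to 0.0693 CPM depending on the library (3 counts per library, counting error only). The other 19 untested members averaged at most 0.0851 CPM. Among them was SLC7A11, the cystine-glutamate exchanger, with 27 counts in all and at most 7 in a library. The SLC6A family had the most untested members, 12 of 17. A mean of at least 1 CPM was reached by 21 members, and 7 of these had a mean above 30 CPM: SLC3A2, SLC7A2, SLC38A2, SLC38A3, SLC38A4, SLC43A2 and SLC43A3. CPM is not divided by transcript length, which was not used here, so levels are compared within a gene only.

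**Figure D1:**
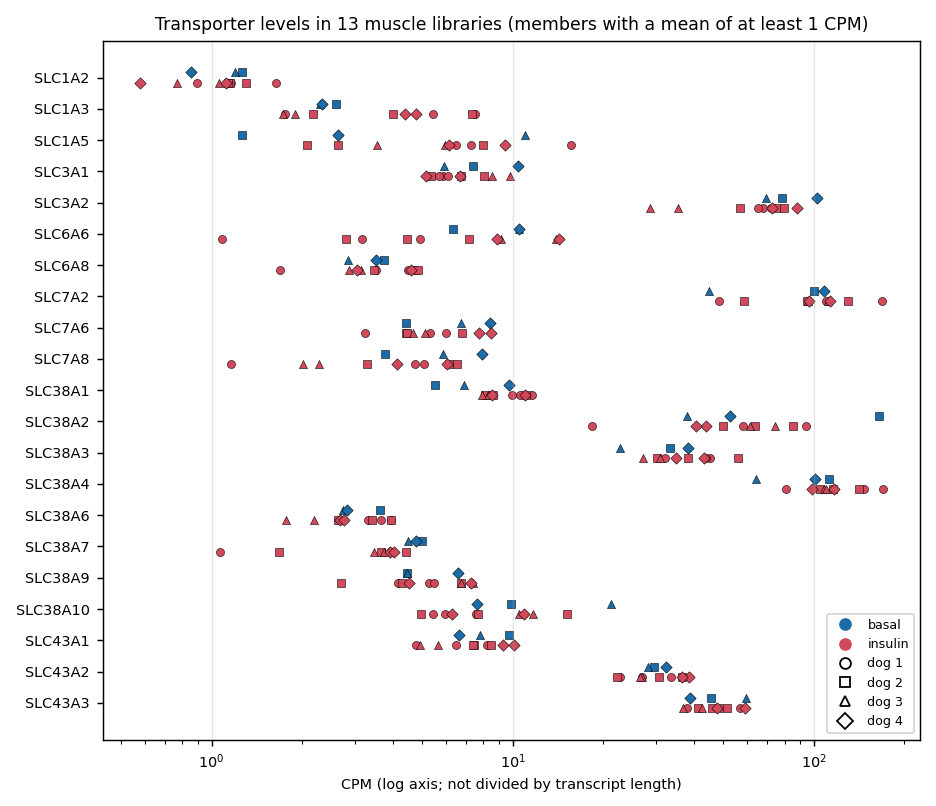
Level of each of the 21 members with a mean of at least 1 CPM (rows) in each of the 13 libraries, in CPM on a log axis; blue points are basal and red points insulin libraries, and the point shape gives the dog. Basal and insulin points overlap for 20 of the 21 members, SLC38A7 being the exception. The share of all genes without overlap was not counted. SLC43A3 spans a narrow range (36.9 to 59.8 CPM) where SLC1A5 and SLC6A6 span wide ones.

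No transporter gene passed the test between insulin and basal libraries. By edgeR's quasi-likelihood test 0 of 33 members were called at an adjusted p under 0.05, beside 0.137% of the 14629 genes tested (0.0273% higher and 0.109% lower). One member, SLC3A2, had an unadjusted p under 0.05 (4.12% of all genes did), and DESeq2 also called 0 members (0.711% of all genes). The log2 fold change was positive for 15 members and negative for 18, with a median of -0.06 (all genes tested: 49.8% positive, median 0.00). The median SE was 0.38 for members and 0.29 for all genes, and the 95% intervals below show what sizes of difference the libraries leave possible. In biopsies, fewer cells of a type and less RNA per cell cannot be told apart.

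**Figure D2:**
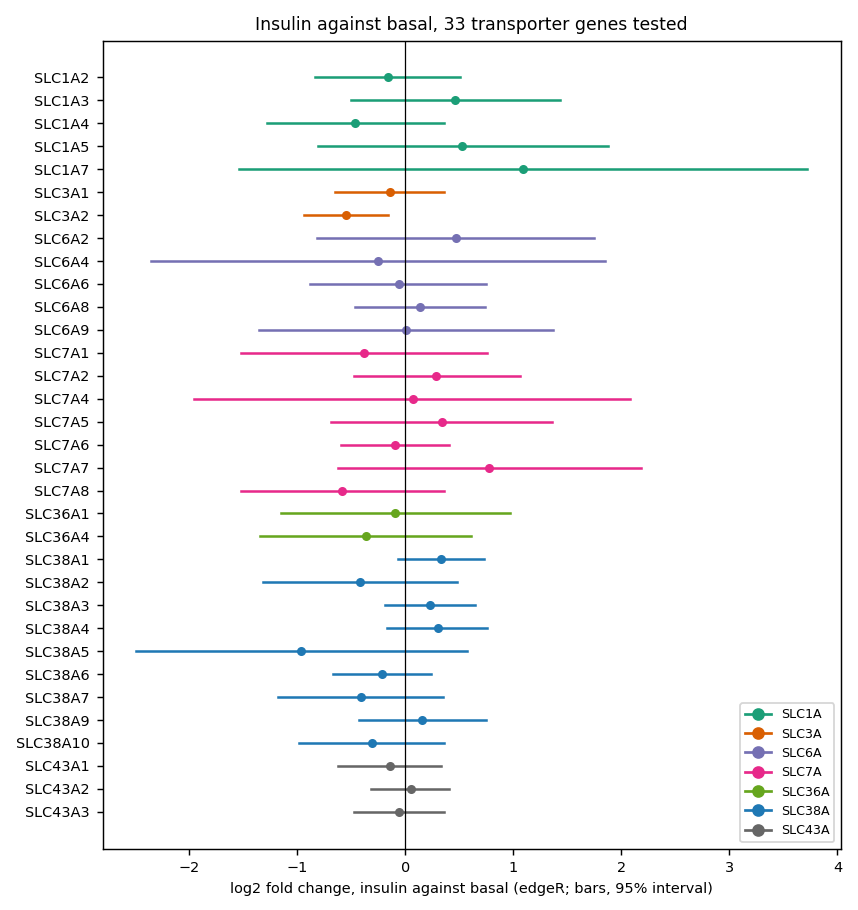
Log2 fold change of insulin against basal libraries (points) with its 95% interval (bars) for the 33 members tested, from edgeR with the dog as a block; colours mark families. All intervals but that of SLC3A2 (-0.94 to -0.16) include 0, and SLC3A2 did not pass after adjustment (adjusted p = 0.726).

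SLC3A2 is the heavy chain (4F2hc) that carries LAT1, LAT2 and other SLC7A light chains to the cell surface. Its level was 78.7 CPM in the basal library of dog 2 and 79.8, 56.7 and 75.2 CPM in that dog's insulin libraries (samples 1, 2 and 3). In dog 3 it was 69.4 CPM in basal and 35.5 and 28.7 CPM with insulin. In dog 4 it was 102.8 CPM in basal and 72.9 and 87.8 CPM with insulin. Thus 6 of 7 insulin libraries lay below the basal library of their own dog, most of all in dog 3, while the ranges of the groups overlapped. In dog 1 the 3 insulin libraries held 67.7, 65.2 and 72.4 CPM. The log2 fold change was -0.55 ± 0.18 (SE; edgeR unadjusted p = 0.00953, adjusted p = 0.726). Without the basal library of dog 3 it was -0.25 (unadjusted p = 0.213), so the size of the difference rests largely on that dog. Counts such as 6 of 7, here and below, set 7 insulin libraries against only 3 basal libraries. They are not 7 independent cases, and the share of all genes with such a count was not computed.

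Of the tested light chains that pair with SLC3A2, SLC7A5 and SLC7A7 had a positive and SLC7A8 and SLC7A6 a negative log2 fold change. None passed. SLC7A5 (LAT1), the exchanger that brings leucine and other large neutral amino acids into the cell, had few reads, at most 81 counts in a library. In dog 2 it was 0.330 CPM in basal and 0.214, 0.238 and 0.154 CPM with insulin, and in dog 4 it was 0.531 CPM in basal and 0.540 and 0.676 CPM with insulin. In dog 3 it was 0.369 CPM in basal and 1.35 and 1.49 CPM with insulin, the 2 highest values of all 13. Its log2 fold change was 0.34 ± 0.48 (95% interval -0.69 to 1.36, adjusted p = 1), and it was -0.28 without the basal library of dog 3. SLC7A8 (LAT2), the other leucine exchanger, was 3.77 CPM in basal and 6.51, 6.16 and 3.29 CPM with insulin in dog 2. In dog 3 it was 5.89 CPM in basal and 2.27 and 2.01 CPM with insulin, and in dog 4 it was 7.90 CPM in basal and 4.12 and 6.05 CPM with insulin. Like SLC3A2 it was thus lower in the insulin libraries of dogs 3 and 4, below its own basal library in 5 of 7 cases, while dog 2 mostly went the other way. Its log2 fold change was -0.58 ± 0.44 (95% interval -1.52 to 0.36), -0.08 without the basal library of dog 3 and -1.06 without that of dog 2. SLC7A6, which exchanges arginine for neutral amino acids, was 4.43 CPM in basal and 6.78, 4.41 and 4.45 CPM with insulin in dog 2. It was 6.73 CPM in basal and 5.11 and 4.66 CPM with insulin in dog 3, and 8.43 CPM in basal and 8.48 and 7.71 CPM with insulin in dog 4 (-0.09 ± 0.23).

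The cationic carrier SLC7A2 (CAT2) was 100.5, 45.0 and 108 CPM in the basal libraries of dogs 2, 3 and 4. Its insulin libraries ran from 48.3 CPM in dog 1 sample 2 through a median of 103 to 168 CPM in dog 1 sample 1, so that 1 dog held both ends of the range. Its log2 fold change was 0.29 ± 0.35 (95% interval -0.47 to 1.06). The related SLC7A1 (CAT1), a widely expressed arginine carrier, was 0.863, 0.753 and 0.808 CPM in basal libraries and from 0.148 CPM (dog 4 sample 2) to 1.10 CPM (dog 2 sample 3) in insulin libraries. Its log2 fold change was -0.38 ± 0.53 (95% interval -1.52 to 0.76). SLC3A1, the heavy chain of the kidney cystine carrier, had 7.05 CPM on average although its partner SLC7A9 had 0 counts. In RefSeq's annotation of another dog assembly SLC3A1 overlaps PREPL, which had from 27.1 to 48.7 CPM here, and the strand setting of the counting is not stated, so some reads of either gene may have been counted for the other or left out.

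Among sodium-coupled carriers of the SLC38A family, 9 of 11 members were tested, 4 with a positive and 5 with a negative log2 fold change. SLC38A2 (SNAT2), the system A carrier known to respond to insulin and to amino acid shortage, went in different directions in different dogs. In dog 2 it was 164 CPM in basal and 63.9, 85.5 and 50 CPM with insulin, and in dog 4 it was 52.7 CPM against 43.9 and 40.7 CPM. In dog 3 it was 38 CPM in basal and 61.5 and 74.2 CPM with insulin. The basal library of dog 2 was the highest of the 13 and dog 1 sample 2, at 18.4 CPM, the lowest. The log2 fold change was -0.42 ± 0.42 (95% interval -1.32 to 0.48), and 0.22 without the basal library of dog 2.

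SLC38A1 (SNAT1), another system A carrier, was 5.54, 6.92 and 9.70 CPM in the basal libraries of dogs 2, 3 and 4. In insulin libraries it was 8.59, 8.10 and 11.1 CPM in dog 2, 8.26 and 7.93 CPM in dog 3, 11.0 and 8.57 CPM in dog 4, and from 9.94 to 11.6 CPM in dog 1. It was thus above its own basal library in 6 of 7 cases, and the groups overlapped only through the basal library of dog 4. All cases of dog 2 rest on its 1 basal library, which held the lowest value of the 13. Insulin against basal gave a log2 fold change of 0.33 ± 0.19 (95% interval -0.07 to 0.73, adjusted p = 1), and 0.12 without the basal library of dog 2. SLC38A4 (SNAT4), the third system A carrier, was 112, 64.4 and 101 CPM in the basal libraries of dogs 2, 3 and 4 and from 80.9 CPM through a median of 113 to 170.2 CPM with insulin. It averaged 92.6 ± 25.0 CPM in basal and 119 ± 26.2 CPM with insulin (0.30 ± 0.22, 95% interval -0.17 to 0.76), and the log2 fold change was 0.10 without the basal library of dog 3. SLC38A3 (SNAT3), the system N glutamine carrier, was 33.4, 22.8 and 38.3 CPM in the same basal libraries and from 27.2 CPM through a median of 36.4 to 56.0 CPM with insulin (0.23 ± 0.19). Both were above their own basal library in 5 of 7 cases, and for both the basal library of dog 3 was the lowest of the 13 (64.4 and 22.8 CPM).

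**Figure D3:**
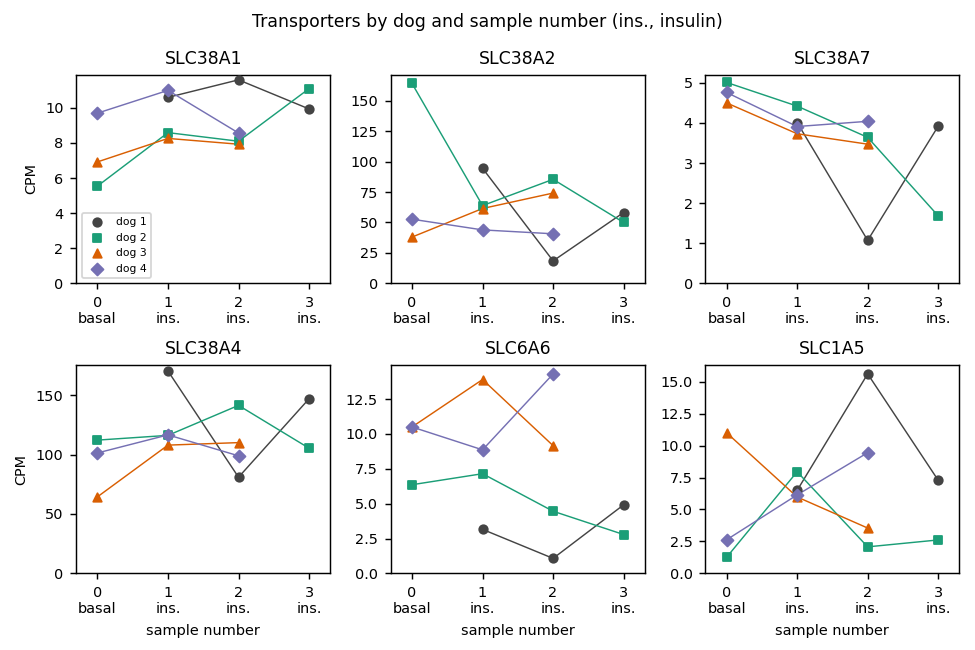
CPM of 6 members (panels) against sample number, where 0 is basal and 1 to 3 are insulin libraries; lines join the libraries of 1 dog. SLC38A7 lies below its own basal library in every insulin library of dogs 2, 3 and 4, and SLC38A2 goes in opposite directions in dogs 2 and 3. SLC6A6 is higher in all libraries of dogs 3 and 4 than in those of dogs 1 and 2, a split not set in advance.

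Transporters of the lysosome had small or imprecise differences. SLC38A7, which exports glutamine from lysosomes, was 5.01, 4.50 and 4.76 CPM in the basal libraries of dogs 2, 3 and 4. Its insulin values were 4.42, 3.64 and 1.68 CPM in dog 2, 3.73 and 3.47 CPM in dog 3, 3.91 and 4.04 CPM in dog 4, and 4.01, 1.07 and 3.92 CPM in dog 1. All 10 insulin libraries lay below all 3 basal libraries, the highest at 4.42 CPM against the lowest basal value of 4.50 CPM. How many of all genes separate in this way was not counted, so this is a description only. Dog 1 sample 2 and dog 2 sample 3 were far lower than the rest, and the log2 fold change of -0.41 ± 0.36 did not pass (95% interval -1.18 to 0.35, adjusted p = 1). SLC38A9, the arginine sensor that signals to mTORC1, was 4.46, 4.46 and 6.58 CPM in basal libraries and from 2.69 to 7.40 CPM in insulin libraries (0.16 ± 0.28, 95% interval -0.43 to 0.75). SLC36A1 (PAT1), a proton-coupled carrier of small amino acids, was 0.722, 1.33 and 0.878 CPM in the basal libraries of dogs 2, 3 and 4 and from 0.166 CPM through a median of 0.799 to 1.32 CPM with insulin (-0.09 ± 0.49).

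Of the remaining SLC38A members, SLC38A6 was 3.63, 2.73 and 2.82 CPM in the basal libraries of dogs 2, 3 and 4 and from 1.77 CPM through a median of 3.03 to 3.95 CPM with insulin. Its log2 fold change with the dog as a block was -0.21 ± 0.21 (-0.09 without the basal library of dog 3), and 6 of 7 insulin libraries lay below their own basal library. The SLC38A6 gene overlaps TRMT5 in the same RefSeq annotation. There 7 of the 54 members overlap a protein-coding gene, also SLC1A7, SLC6A9, SLC7A7, SLC7A10 and SLC38A2. SLC38A2 overlaps LOC119866347, for which no level is given here. SLC7A7 overlaps MRPL52 (33.7 to 58.9 CPM) and LRP10 (9.05 to 31.0 CPM) among others, so its few reads carry the limit given for SLC3A1. SLC38A10 was 21.3 CPM in the basal library of dog 3 and from 4.96 to 15.2 CPM in the other 12 libraries, and SLC38A5 was 3.47 CPM in that basal library and at most 1.18 CPM elsewhere. The same library held both of these highest values, and neither gene passed (-0.31 ± 0.31 and -0.96 ± 0.71). That basal library was often at an extreme. It held the highest value of 13.6% and the lowest of 13.8% of the 10426 genes tested with a mean of at least 1 CPM. Only dog 1 sample 2 held more (24.2% and 22.4%).

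SLC6A6, the taurine carrier, and SLC6A8, the creatine carrier, were the members of the SLC6A family with at least 1 CPM. SLC6A6 was 6.36, 10.5 and 10.5 CPM in the basal libraries of dogs 2, 3 and 4, and its insulin libraries ranged from 1.08 CPM in dog 1 sample 2 through a median of 6.03 to 14.3 CPM in dog 4 sample 2 (-0.06 ± 0.38, 95% interval -0.88 to 0.75). SLC6A8 was 3.74, 2.83 and 3.53 CPM in the same basal libraries and from 1.69 CPM through a median of 3.49 to 4.86 CPM with insulin (0.14 ± 0.28, 95% interval -0.46 to 0.74).

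In the SLC1A family SLC1A5 (ASCT2), a glutamine exchanger, had the highest SD over the 13 libraries of the members with a mean of at least 1 CPM, on a log scale. It was 1.26 CPM in basal and 7.95, 2.08 and 2.62 CPM with insulin in dog 2, and 2.63 CPM in basal and 6.14 and 9.44 CPM with insulin in dog 4. In dog 3 it was 11.0 CPM in basal and 5.98 and 3.55 CPM with insulin, the opposite order. Dog 1 held 6.49, 15.6 and 7.28 CPM. The log2 fold change was 0.53 ± 0.62 (95% interval -0.81 to 1.88), -0.07 without the basal library of dog 2 and 1.67 without that of dog 3. SLC1A3, a glutamate carrier best known from glia, was 2.59, 2.29 and 2.33 CPM in basal libraries and from 1.73 to 7.51 CPM in insulin libraries (0.46 ± 0.45, 95% interval -0.50 to 1.43). Its log2 fold change was 0.23 without the basal library of dog 4 and 0.89 without that of dog 3.

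Members with a mean near or below 1 CPM also had 0 calls. In the SLC1A family the glutamate carrier SLC1A2 ranged from 0.577 to 1.64 CPM over the 13 libraries, SLC1A4, a carrier of alanine, serine and cysteine, from 0.240 to 1.52 CPM and SLC1A7 from 0 to 0.264 CPM. The noradrenaline carrier SLC6A2 ranged from 0.110 to 1.12 CPM and the glycine carrier SLC6A9 from 0 to 0.217 CPM. SLC7A7, a relative of SLC7A6, ranged from 0.0693 to 0.628 CPM, SLC7A4 from 0 to 0.374 CPM and SLC36A4 from 0.247 to 1.84 CPM.

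Carriers of the SLC43A family had narrow intervals. SLC43A2 (LAT4), a facilitative carrier of branched-chain amino acids, averaged 30 ± 2.12 CPM in basal and 30.1 ± 5.90 CPM with insulin (0.05 ± 0.17, 95% interval -0.32 to 0.41). SLC43A1 (LAT3), of the same function, was 9.69, 7.78 and 6.63 CPM in the basal libraries of dogs 2, 3 and 4 and from 4.79 CPM through a median of 7.41 to 10.1 CPM with insulin (-0.14 ± 0.22, 95% interval -0.62 to 0.33). SLC43A3, a carrier of purine bases rather than amino acids, averaged 48.1 ± 10.7 and 46.9 ± 7.55 CPM (-0.06 ± 0.19, 95% interval -0.47 to 0.36).

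Taking the sample numbers apart also gave 0 calls among members. Sample 1 and sample 2 were each compared with the same 3 basal libraries, so these comparisons are not independent. In sample 1 against basal, edgeR called 0 of 33 members (0.0% of all genes tested) and 1 member had an unadjusted p under 0.05 (2.99% of all genes). In sample 2 against basal it called 0 of 33 (0.0479% of all genes, 0.0137% higher and 0.0342% lower), again with 1 member under 0.05 before adjustment (4.95% of all genes). That member was SLC3A2 each time, at -0.50 ± 0.21 in sample 1 (adjusted p = 1) and -0.64 ± 0.21 in sample 2 (adjusted p = 0.798). In sample 2 against sample 1 the call was 0 of 33 (0.0% of all genes), and 0 members had an unadjusted p under 0.05 (3.38% of all genes). DESeq2 called 0 members in each, beside 0.273% of all genes in sample 1 and 0.499% in sample 2 against basal and 0.0% in sample 2 against sample 1. Log2 fold changes of sample 2 against sample 1 were negative for 24 of 33 members (median -0.16), while over all genes 47.6% were positive and the median was -0.02. Members share the same libraries, so their signs are not independent. One of the 4 sample 2 libraries, that of dog 1, stood apart in ACTA1. It held the lowest value of 6 of the 21 members with a mean of at least 1 CPM. Among members SLC1A3 had the lowest p in sample 2 against sample 1 (-0.86 ± 0.41, adjusted p = 0.902). It was 5.42, 7.35, 1.90 and 4.39 CPM in sample 1 and 1.75, 2.18, 1.73 and 4.79 CPM in sample 2 of dogs 1, 2, 3 and 4, so that dogs 1 and 2 made the difference. Sample 3 gave values of 2 dogs only and was not tested alone.

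Over the whole table, 458 genes (3.13%) passed an F test among the 4 dogs. Libraries of 1 dog served as its repeats, and the dog cannot be told apart from anything else its biopsies shared. Of the 33 members 0 passed by edgeR, 5 had an unadjusted p under 0.05 (15.6% of all genes did), and DESeq2 called 3 (9.08% of all genes). The last 2 counts are near the shares of all genes, so members did not stand out among dogs. The 3 called by DESeq2 were SLC3A2, SLC6A4 and SLC6A6. SLC6A6 ranged from 1.08 to 4.92 CPM in dog 1 and from 2.79 to 7.15 CPM in dog 2, against 9.16 to 13.9 CPM in dog 3 and 8.86 to 14.3 CPM in dog 4. The libraries of dogs 3 and 4 did not overlap those of dogs 1 and 2. This split of the dogs was not set in advance, and the share of all genes with such a split was not counted. The F test among all 4 dogs gave an edgeR adjusted p of 0.172 and DESeq2 an adjusted p of 0.00806. SLC6A4, the serotonin carrier, was between 0.484 and 0.709 CPM in the libraries of dog 1 and at most 0.294 CPM in the other dogs, and it rested on at most 47 counts in a library (edgeR adjusted p = 0.0978, DESeq2 adjusted p = 0.00312). SLC3A2 averaged 44.5 CPM in dog 3 and 68.4, 72.6 and 87.8 CPM in dogs 1, 2 and 4 (edgeR adjusted p = 0.0905, DESeq2 adjusted p = 0.00791). SLC7A5 averaged 1.07 CPM in dog 3 and 0.463, 0.234 and 0.582 CPM in dogs 1, 2 and 4 (edgeR adjusted p = 0.234), so that dog 3 had the lowest mean of the heavy chain and the highest mean of the light chain. For SLC3A2 and SLC7A5 the basal library of dog 3 did not share these extremes. Each library or dog was also left out in turn. SLC3A2 then passed among dogs by edgeR in 1 of 17 fits, the one without that basal library (adjusted p = 0.0383). Its adjusted p reached 0.724 without dog 3. SLC6A6 passed in 2 of 17 fits, without sample 3 of dog 1 or of dog 2. Each of these fits leaves 1 sample 3 library, which its own term in the model fits exactly. The 2 fits are therefore nearly the same and do not count as separate results. The adjusted p of SLC6A6 reached 0.392 without sample 1 of dog 1.

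Because members such as SLC38A2, SLC1A5 and SLC7A5 went in different directions in different dogs, a test of whether the response to insulin differed among dogs 2, 3 and 4 was added after the values were seen. It rests on 1 basal library per dog. EdgeR called 0 of 33 members (0.0273% of all genes tested), and 3 had an unadjusted p under 0.05, beside 5.41% of all genes. They were SLC1A5, SLC3A1 and SLC7A5 (adjusted p = 0.862, 0.907 and 0.911). A response that differs between dogs was therefore not shown for any member with this filter.

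Over the 13 libraries the 21 members with a mean of at least 1 CPM had a median SD of 0.379 on the log2(CPM + 0.5) scale, beside 0.333 for the 10426 genes tested at that level. SLC1A5 (0.938) and SLC6A6 (0.936) stood at the 97.9th and 97.8th percentile of those genes, SLC38A2 (0.747) at the 94.4th, and SLC43A3 (0.236) at the 19.4th. These percentiles are not matched on level. Dog 1 sample 2 held the lowest value of 6 of the 21 members, SLC6A6, SLC6A8, SLC7A6, SLC7A8, SLC38A2 and SLC38A7, beside 22.4% of all such genes.

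Genes around these transporters, taken from 4 fixed lists, also had 0 calls with insulin by edgeR. Among 14 other amino acid and peptide carriers tested 0 were higher and 0 lower in insulin against basal, as were 0 and 0 of 25 genes of the amino acid response driven by ATF4, 0 and 0 of 30 genes of lysosomal amino acid sensing, and 0 and 0 of 26 genes of amino acid, taurine and creatine metabolism. The medians were 0.01, 0.10, 0.02 and 0.08, and 1, 0, 1 and 3 genes had an unadjusted p under 0.05. Of all genes tested, edgeR called 0.137%, and 4.12% had an unadjusted p under 0.05. DESeq2 called GLUL, glutamine synthetase (adjusted p = 0.0103), and 0 other genes of these lists, beside 0.711% of all genes. GLUL was 129.8 CPM in basal and 88.5, 91.9 and 94.6 CPM with insulin in dog 2, 57.5 CPM against 43.6 and 36.7 CPM in dog 3, and 76.4 CPM against 57.2 and 52.9 CPM in dog 4. All 7 insulin libraries were below the basal library of their dog (-0.50 ± 0.12, edgeR adjusted p = 0.215). The other genes with an unadjusted p under 0.05 were GADL1, described among dogs (-0.41 ± 0.17), CTNS, the lysosomal cystine exporter (-0.64 ± 0.26), FLCN, which acts on the Rag proteins of the lysosome (0.44 ± 0.20), and ODC1, the first enzyme of polyamine synthesis (0.57 ± 0.20), all with an adjusted p of at least 0.808. In sample 1 and sample 2 against basal and in sample 2 against sample 1, 0 genes of the 4 lists passed by edgeR or DESeq2.

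Among dogs, 3 of the 94 genes of these lists passed by edgeR, a share of 3.19% that is near the 3.13% of all genes, and 13 by DESeq2 (13.8%, all genes 9.08%). GLUL averaged 73.4, 101, 46.0 and 62.2 CPM in dogs 1, 2, 3 and 4 (edgeR adjusted p = 0.00462). GADL1, an enzyme related to the one that makes taurine, averaged 93.1, 134, 70.2 and 41.7 CPM (adjusted p = 0.00701). PSAT1, an enzyme of serine synthesis and a target of ATF4, averaged 1.29, 0.863, 3.65 and 0.963 CPM (adjusted p = 0.0233). Leaving out each library or dog in turn, GLUL was past the threshold in 15 of 17 fits, GADL1 in 14 and PSAT1 in 7. GLUL missed it without dog 2 (adjusted p = 0.212) and without dog 3 (0.146). GADL1 missed it without dog 4 (0.181), without dog 2 (0.0925) and without the basal library of dog 2 (0.0504). PSAT1 had its highest adjusted p, 0.830, without dog 3.

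Dog 3, whose 2 insulin libraries held the highest SLC7A5, also held the 2 highest values of 7 of the 25 genes of the ATF4 list in those libraries (28.0%, beside 1.95% of all genes tested), a tally made after the values were seen. These were CEBPG, DDIT4, PCK2, PSAT1, SESN2, STC2 and TRIB3. Of them STC2 and TRIB3 had few reads, 126 and 183 counts over all 13 libraries. The tally rests on 2 libraries of 1 dog. Other genes of the list were lower with insulin in that dog, such as ASNS and NUPR1. ASNS was 3.05 CPM in basal and 2.07 and 2.19 CPM with insulin, and NUPR1 22.2 CPM against 8.96 and 7.40 CPM. Dog 3 had the highest mean of 12 of the 25 genes (all genes, 29.4%) and the lowest of 5, ATF4, ATF5, CEBPB, EIF4EBP1 and PSPH (20%, all genes 23.2%). The mean of ATF4 was nearly the same in dog 1 (370.9 CPM) as in dog 3 (369.6 CPM). Within dog 3 ATF4 was 303 CPM in basal and 370.6 and 435.2 CPM with insulin. PSAT1 was 2.41 CPM in the basal and 3.67 and 4.87 CPM in the insulin libraries of dog 3, and at most 1.4 CPM in the other dogs. SESN2, a leucine sensor, was 2.17 CPM in basal and 7 and 7.34 CPM with insulin in dog 3, and at most 2.97 CPM in the other dogs. PCK2 was 2.18 CPM against 4.58 and 4.63 CPM, and at most 2.43 CPM elsewhere. SESN2 and PCK2 did not pass among dogs (edgeR adjusted p = 0.116 and 0.124), and none of these 3 genes passed the added test of a response differing between dogs (adjusted p = 1 for each). In that test CHAC1, a glutathione-degrading enzyme of the same list, had an adjusted p of 0.016, from a contrast that rests on 1 basal library in each dog. It was 2.34 CPM in basal and 0.401, 0.238 and 0.548 CPM with insulin in dog 2, but 0.369 CPM against 4.71 and 7.93 CPM in dog 3, and 1.89 CPM against 8.93 and 11.3 CPM in dog 4. The call was lost when 1 of 4 insulin libraries was left out. The adjusted p was then 0.0761 for sample 1 of dog 2 and 0.053 for sample 2 of dog 3. For dog 4 it was 0.0508 without sample 1 and 0.0664 without sample 2.

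**Figure D4:**
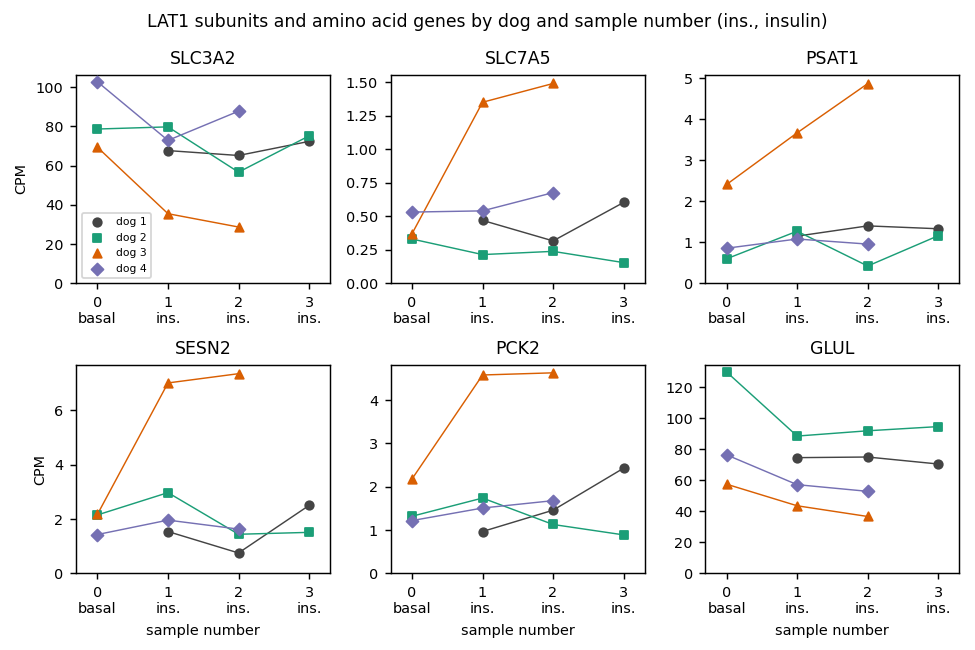
CPM of SLC3A2 and SLC7A5, the 2 chains of LAT1, and of 4 genes from the fixed lists against sample number (0, basal; 1 to 3, insulin); lines join the libraries of 1 dog. The insulin libraries of dog 3 are the lowest for SLC3A2 (35.5 and 28.7 CPM) and the highest for SLC7A5, PSAT1, SESN2 and PCK2, while GLUL is lower than its own basal value in all insulin libraries of dogs 2, 3 and 4.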

How the data were processed

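Total RNA of 13 muscle biopsies was copied with a full-length SMART-Seq kit, tagged with Nextera XT and sequenced on a NovaSeq, per the labels' protocols. The authors deposited raw read counts per Ensembl gene and a normalized signal, which equals the count divided by 1 factor per library and served only to check columns. Bowtie 0.12.2 and CanFam3.1 are named in the submitters' processing notes without a role. The read counter, annotation release and strand setting are not given in the sources used here.

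Counts were fitted over all genes with edgeR 4.0.16 in R 4.3.3 (filterByExpr, TMM, robust quasi-likelihood), which tested 14629 genes, with Benjamini-Hochberg adjustment over all of them and a threshold of 0.05. The models held dog and stimulation, or dog and sample number. The dog was a block because the same animals gave the libraries: deviations from group means had a median r of 0.196 over 15 pairs of libraries of 1 dog and -0.0711 over 47 pairs of different dogs. Dog 1 entered only the spread in insulin against basal. The model takes libraries of 1 dog as repeats of it, so p values measure only the spread between these libraries. SE is the fold change over the root of F, and 95% intervals use its t distribution. On simulated counts for insulin against basal (14402 genes tested) 36% of 100 genes changed by 1 on the log2 scale and 93.0% of 100 changed by 2 were recovered, with 3 false calls. The changed genes were drawn only from those above a cutoff on mean count, so members with few counts, such as SLC7A5, are not covered. DESeq2 1.42.0, other scaling, no filter, no block, summed libraries and leaving out libraries or dogs were the alternatives.

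Members, lists and tests were chosen with earlier results of these data known. The 8 members of lowest p with a mean of at least 1 CPM and 13 fixed members, 18 in all, are given by library or by lowest, median and highest value, or lowest and highest alone. Other tested members are given by range or by mean and SD. From each fixed list the genes that passed and up to 4 of lowest p are named, and CHAC1 was named after its values were seen. RefSeq names come from another assembly (54 of 54 members matched), so no coordinates are given.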

Additional observations from a re-analysis of the deposited data

Results flagged for a closer look

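SLC38A4 was 170.2 CPM in sample 1 of dog 1, far above the next insulin sample 1 library at 116.5 CPM. SLC6A8 was 2.87 CPM in sample 1 of dog 3, far below the next value of 4.48 CPM in that group. SLC1A3 was 4.79 CPM in sample 2 of dog 4, far above the next value of 2.18 CPM among sample 2 libraries. These 3 libraries were singled out among 54 sets of values, and chance alone singles out about 1 set in 20. CHAC1 had an adjusted p of 0.016 in edgeR's test of a response that differs between dogs 2, 3 and 4, with values below basal in 3 of 3 insulin libraries of dog 2 and above it in 4 of 4 of dogs 3 and 4. Each dog's response rests on 1 basal library, whose own error cannot be told apart from the dog's response. Leaving out 1 insulin library at a time gave an adjusted p from 0.00829 to 0.0761, above 0.05 in 4 fits (dog 2 sample 1, dog 3 sample 2 and both insulin libraries of dog 4).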

How the results depend on the processing

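The call of 0 of 33 members in the 4 comparisons of stimulation or sample number held under every alternative run, and of 374 refits of 17 named members 19 changed sign and 0 passed. Counts over all genes moved more. With insulin against basal, 20 genes became 104 with DESeq2, 140 without the filter, 6 with no replicate block (SLC3A2 then -0.38) and 1 with libraries summed per dog, where SLC6A6 turned to 0.01. Sample 1 against basal gave 4 genes with RLE scaling, 40 with DESeq2 and 16 without the filter. Sample 2 against basal gave 73, 28 and, with no replicate block, 0 genes (DESeq2, no filter, no block). Among dogs, DESeq2 called 3 members and 1329 genes, and no filter 2 members and 793 genes. The response differing between dogs gave 2 members (SLC1A5 and SLC38A2) and 328 genes without the filter, and 89 genes with DESeq2. How many members were among those 89 genes is not given here. Without the filter every gene with at least 1 count was tested. The counts without it thus cover more genes and members than the main tests and were not turned into shares. The cause of these shifts was not tested.

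Leaving out a library or a dog in turn gave 4 to 28 genes with insulin, 0 to 8 in sample 1, 0 to 13 in sample 2, 79 to 625 among dogs (0 to 1 members) and 0 to 10 for the response differing between dogs. The log2 fold change with insulin crossed 0 for SLC1A5 (-0.07 to 1.67), SLC6A6 (-0.19 to 0.14), SLC7A1 (-0.66 to 0.15), SLC7A5 (-0.29 to 1.02), SLC36A1 (-0.25 to 0.12), SLC38A2 (-0.87 to 0.22), SLC38A9 (-0.05 to 0.33) and SLC43A1 (-0.43 to 0.07). It kept its sign for SLC3A2 (-0.75 to -0.25), SLC7A8 (-1.06 to -0.08), SLC38A7 (-0.51 to -0.29), SLC38A6 (-0.29 to -0.09), SLC1A3 (0.23 to 0.89), SLC6A8 (0.06 to 0.2), SLC38A1 (0.12 to 0.5), SLC38A3 (0.13 to 0.33) and SLC38A4 (0.1 to 0.41). In simulated counts for insulin against basal (14402 genes), 36% of genes changed by 1 on the log2 scale were recovered, so a member changed by that much could often be missed. The simulation changed no genes with few counts, so this share does not cover members at such levels.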
